A study of Mus musculus with 60 samples.

Results

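Fibroblast nuclear transfer (NTM) embryos were compared between the 1-cell and the 2-cell stage, gene by gene, in all 3 libraries of each stage. The 6 libraries were chosen by their labels, out of 60 in the series, and all 27238 genes of the expression table were members of the comparison. Of these, 10920 averaged 0.5 RPKM or more over the 6 libraries and were tested (40.1%). RPKM is the number of reads on a gene scaled to the length of its exons and to the reads of the library, so it can be compared between genes, but it is relative to the other RNA of the library and does not measure RNA per embryo. The study followed embryos of 3 types from the 1-cell stage to the blastula stage, together with both donor cell types.

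NTM embryos were made by injecting the nucleus of a mouse embryonic fibroblast (MEF) from BDF1 fetuses (C57BL/6 mothers, DBA2 fathers) into an enucleated metaphase II oocyte of BDF1 females, activated in the presence of cytochalasin B, treated with the histone deacetylase inhibitor Scriptaid and grown in vitro. The donor fibroblasts were cultured through several passages and held in G0/G1 phase before use. NTC embryos, used here for comparison, carried the nucleus of a cumulus cell from BDF1 females in the same kind of oocyte, and in vivo embryos came from C57BL/6 females mated with DBA2 males. Each embryo library was 1 embryo, picked by its appearance, so embryos of poor appearance were not sampled. The 3 libraries of a group were separate embryos, and the labels say that each stage was collected in several independent experiments.

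A newly reconstructed embryo contains the messenger RNA that the oocyte stored during growth, and little else. In fertilized mouse embryos much of this maternal RNA is deadenylated and degraded between the 1-cell and the 2-cell stage, while transcription starts in a weak first wave (minor zygotic genome activation, ZGA) and then in a strong second wave at the 2-cell stage. In a nuclear transfer embryo the oocyte factors meet a somatic genome, which has to be silenced in its fibroblast programme and opened at the genes of the early embryo.

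The reads on genes, estimated from the steps between low values, were 14158395, 14779093 and 16507415 in NTM 1-cell replicates 1 to 3, and 19596658, 13761484 and 12384492 in NTM 2-cell replicates 1 to 3. Replicate 3 of the 2-cell stage had 10084 genes above 0, against 11817 to 12346 in the other 5 libraries. Across all genes the Pearson correlation of log2(RPKM + 1) was 0.946 to 0.951 between 1-cell embryos and 0.794 to 0.845 between 2-cell embryos, so the 2-cell embryos differed more among themselves. The fibroblast collagen gene Col1a1 was at 0 in all 6 NTM libraries and at 2819 RPKM in the mean of the MEF libraries. Of 51 fibroblast markers measured, 15 were high enough in NTM embryos to be tested. Of the 15, 0 were called by limma, beside 9.4% of all genes tested. A positive log2 difference (2-cell minus 1-cell) was seen in 11 of the 15, with a median of 0.76 beside -0.22 for all genes tested. The filter for testing averages both stages, so a marker could pass it through its 2-cell level alone. The sign and median of the 15 are therefore a description only. Of the markers measured, 4 had a mean of at least 1 RPKM at the 1-cell stage and 13 at the 2-cell stage. The level summed over the list was 25.8 to 30.2 RPKM at the 1-cell stage and 36.9 to 56.2 RPKM at the 2-cell stage. For 33 markers of cumulus cells, which surround the oocyte before it is stripped, the sums were 159 to 216 RPKM and 122 to 162 RPKM, and of 9 tested 1 was called, the protease inhibitor gene Serpine2, which was lower at the 2-cell stage.

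Between the 1-cell and the 2-cell stage 1026 genes changed (limma, Benjamini-Hochberg adjusted p under 0.05 and a log2 difference of at least 1 in size), which is 9.4% of the genes tested. At the 2-cell stage 297 were higher (2.72%) and 729 were lower (6.68%). The largest rises were those of Phf1, Cfl1, Selenow, Ube2s, Hmga1b, Hmga1, Ybx2 and Prr5, and the largest falls those of Oas1h, Gspt2, Kbtbd6, Calu, Cept1, Nup107, Nsrp1 and Hat1. The 729 genes that fell had a median of 37.9 RPKM at the 1-cell stage and 5.12 RPKM at the 2-cell stage. The 297 genes that rose had a median of 2.82 RPKM at the 1-cell stage and 36.7 RPKM at the 2-cell stage. The 3 RPKM values of 1 stage did not overlap those of the other in 3607 genes (33% of those tested, where 9.4% were called), including all 1026 that were called.

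**Figure D1:**
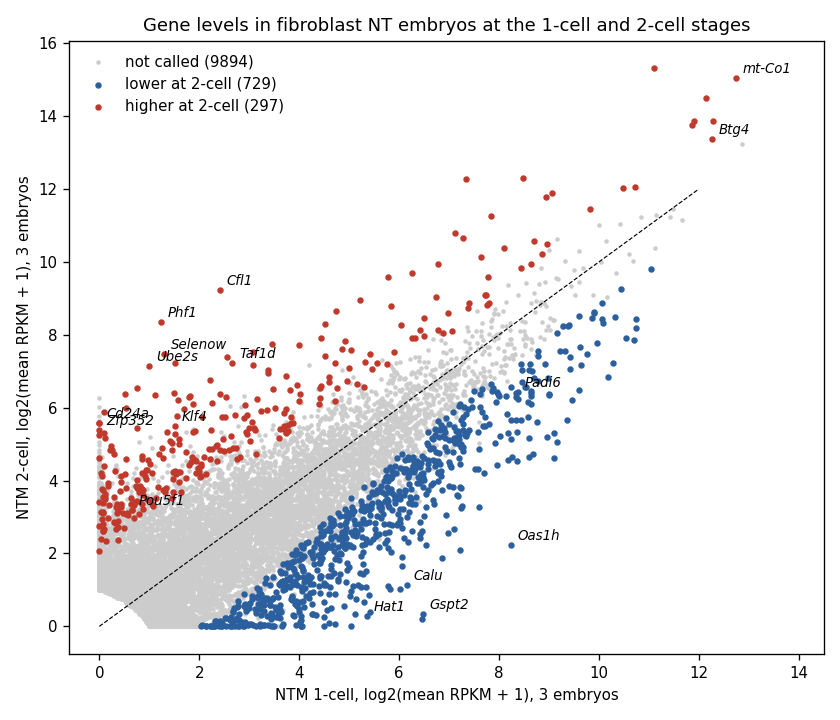
Mean level of each tested gene in the 3 NTM 1-cell embryos (horizontal) and the 3 NTM 2-cell embryos (vertical), both as log2(mean RPKM + 1), with 297 genes called higher in red, 729 called lower in blue and the rest in grey. Genes on the dashed line had equal levels. Phf1 and Cfl1 lie far above it, Oas1h and Gspt2 far below.

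The median log2 difference of all genes tested was -0.22 with the values as deposited and 0.07 after scaling each library by its median ratio. Changes are given with the values as deposited unless said otherwise. With the median-ratio scaling 403 genes were higher and 420 lower (49% of the calls higher, against 28.9% as deposited), after GC correction, described below, 42%, and with the mitochondrial reads left out of the total 36.8% of the calls were higher. Leaving out NTM 1-cell replicate 1, 2 or 3 left 211, 289 or 185 calls, and leaving out a 2-cell embryo 906 to 1215. Of the 729 genes that fell, 21 were at 0 in all 3 2-cell libraries.

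The promoters of the genes with the 2 largest rises (Phf1 and Cfl1), of Oas1h and Calu among the largest falls, and of Zfp352, were set side by side, to show whether the genes that moved together share a promoter of one kind. Gspt2, Kbtbd6 and Cd24a had no entry in the table of windows. The windows are 300 bases from RefSeq (build GRCm38.p6), from 250 before to 50 after the RefSeq start, which can differ from the GENCODE start given for a gene elsewhere, written from 5′ to 3′ along the gene. Capitals mark the GC box (GGGCGG), the CCAAT box (CCAAT) and the TATA box (TATAAA) on either strand.

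Phf1, chr17:26932877-26933176, plus strand, 4 GC boxes: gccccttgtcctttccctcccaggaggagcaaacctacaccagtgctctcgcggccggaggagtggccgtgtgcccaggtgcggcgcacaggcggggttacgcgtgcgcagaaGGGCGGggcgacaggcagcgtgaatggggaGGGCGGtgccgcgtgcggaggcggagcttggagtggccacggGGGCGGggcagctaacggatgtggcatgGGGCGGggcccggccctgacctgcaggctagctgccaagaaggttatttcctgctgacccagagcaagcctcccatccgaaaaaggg
Cfl1, chr19:5490205-5490504, plus strand, 2 GC boxes and 1 CCAAT box: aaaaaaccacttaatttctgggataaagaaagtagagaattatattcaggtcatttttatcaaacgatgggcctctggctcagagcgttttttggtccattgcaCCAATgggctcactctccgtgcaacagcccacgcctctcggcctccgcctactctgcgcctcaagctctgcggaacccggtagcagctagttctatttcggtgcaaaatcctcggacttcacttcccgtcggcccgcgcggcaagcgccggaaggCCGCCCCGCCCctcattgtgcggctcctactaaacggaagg
Oas1h, chr5:120861172-120861471, plus strand, 1 GC box: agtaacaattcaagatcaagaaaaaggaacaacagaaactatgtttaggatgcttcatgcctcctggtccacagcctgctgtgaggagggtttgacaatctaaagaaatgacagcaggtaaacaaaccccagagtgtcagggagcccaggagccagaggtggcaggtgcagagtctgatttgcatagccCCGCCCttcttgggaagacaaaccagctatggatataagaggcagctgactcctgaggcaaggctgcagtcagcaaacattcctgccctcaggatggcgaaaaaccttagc
Calu, chr6:29347856-29348155, plus strand, 3 GC boxes and 3 CCAAT boxes: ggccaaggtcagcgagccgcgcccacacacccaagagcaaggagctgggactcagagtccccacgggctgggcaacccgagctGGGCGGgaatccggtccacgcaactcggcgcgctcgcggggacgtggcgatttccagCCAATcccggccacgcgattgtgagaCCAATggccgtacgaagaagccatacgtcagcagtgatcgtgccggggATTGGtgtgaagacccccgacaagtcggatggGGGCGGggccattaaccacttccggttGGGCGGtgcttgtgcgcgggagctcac
Zfp352, chr4:90218570-90218869, plus strand, with no match to any of the 3 motifs: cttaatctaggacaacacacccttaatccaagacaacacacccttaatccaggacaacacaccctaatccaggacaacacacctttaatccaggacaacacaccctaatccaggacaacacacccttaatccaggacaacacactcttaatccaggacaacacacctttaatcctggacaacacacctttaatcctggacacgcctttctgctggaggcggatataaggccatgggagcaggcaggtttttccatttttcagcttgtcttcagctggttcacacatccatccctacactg

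The windows of Phf1, Cfl1 and Calu hold 24, 22 and 30 CpG, and those of Oas1h and Zfp352 hold 2 each. The GC box was in 63.8% of the promoters of genes that rose, 61.1% of those that fell and 62.0% of all tested genes with a window (213 of 297, 547 of 729 and 8016 of 10920 genes had one). The CCAAT box was in 43.2%, 42.8% and 40.2%, and the TATA box in 9.39%, 5.85% and 7.40%. A match is a string of letters, not a site.

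The genes with the largest rises were near 0 in the 3 NTM 1-cell embryos and high in the 3 NTM 2-cell embryos. Phf1 (GRCm38 chr17:26933052-26937908, a Tudor-domain subunit of Polycomb repressive complex 2) had 1.8, 0.696 and 1.52 RPKM at the 1-cell stage and 361, 281 and 331 RPKM at the 2-cell stage, a log2 difference of 7.15 (SE 0.38, adjusted p = 0.000115). Cfl1, the actin-severing protein cofilin, had 4.37, 5.66 and 3.01 RPKM and then 609.8, 671 and 516 RPKM, a log2 difference of 6.83 (SE 0.34, adjusted p = 0.000115). Ube2s, the enzyme that extends ubiquitin chains for the anaphase-promoting complex, had 0.989, 1.03 and 0.978 RPKM and then 183, 124 and 118 RPKM, a log2 difference of 6.13 (SE 0.40, adjusted p = 0.000353). The stages did not overlap in these genes, which was part of how the largest rises and falls were chosen.

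Selenow, a small selenoprotein, had 0.672, 3.31 and 0.412 RPKM at the 1-cell stage and 153, 183 and 198 RPKM at the 2-cell stage. Ybx2, the Y-box protein that packages stored mRNA in germ cells, had 1.84, 1.94 and 1.83 RPKM and then 171, 126 and 152 RPKM. Hmga1, an architectural protein of chromatin that binds AT-rich DNA, had 0.284, 0.442 and 0.578 RPKM and then 115, 91.1 and 41.3 RPKM. Its near-identical copy Hmga1b had 0.13, 0.0416 and 0.0373 RPKM and 57.7, 53.5 and 62.1 RPKM, and reads may have been split between the 2 genes. The rest of the 12 largest rises were Prr5, a subunit of the kinase complex TORC2 (log2 difference 5.46), Cd24a, a surface glycoprotein (5.16), Asna1, which delivers tail-anchored proteins to the endoplasmic reticulum (5.04), Pofut2, a fucosyltransferase (5.0), and the nuclear receptor Nr2e1 (4.82).

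Most of the genes that rose had RNA in other 1-cell embryos. Phf1 stood at 158, 127 and 137 RPKM in the NTC 1-cell embryos and 222, 327 and 337 RPKM in the in vivo 1-cell embryos. Cfl1 stood at 657, 569 and 740.1 RPKM and 38.5, 460.3 and 511 RPKM. Ybx2 stood at 99.6, 60.9 and 68.4 RPKM and 20.2, 17.6 and 35.6 RPKM. Of the 297 genes that rose, 276 (92.9%) had a mean of at least 1 RPKM over the 6 NTC and in vivo 1-cell libraries, and 21 did not. Among all genes tested 79.3% reached that level, and among the 729 genes that fell 99.6%. The median NTM 2-cell level was 36.7 RPKM for the genes that rose and 4.07 RPKM for all genes tested. That level took part in the choice of the genes that rose, and the shares above were not compared at like levels.

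The median over the 297 genes was 2.66, 2.97 and 2.73 RPKM in the NTM 1-cell embryos. It was 21.3, 21.6 and 22.8 RPKM in the NTC 1-cell embryos and 11.2, 15.8 and 19.2 RPKM in the in vivo 1-cell embryos. At the 2-cell stage it was 39.8, 29.2 and 30.5 RPKM in NTM, 23.7, 32.2 and 36.2 RPKM in NTC and 24.4, 20.3 and 4.13 RPKM in in vivo embryos. The NTM values chose these genes, so their low level in NTM 1-cell embryos is a description, whereas the NTC and in vivo values played no part in the choice. The 3 NTM 1-cell embryos were below the other 6 1-cell embryos, and replicate 3 of the in vivo 2-cell embryos was below the other 2-cell embryos. In that embryo Phf1 was at 0.598 RPKM, Cfl1 at 5.06 RPKM and Ube2s at 2.2 RPKM.

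**Figure D2:**
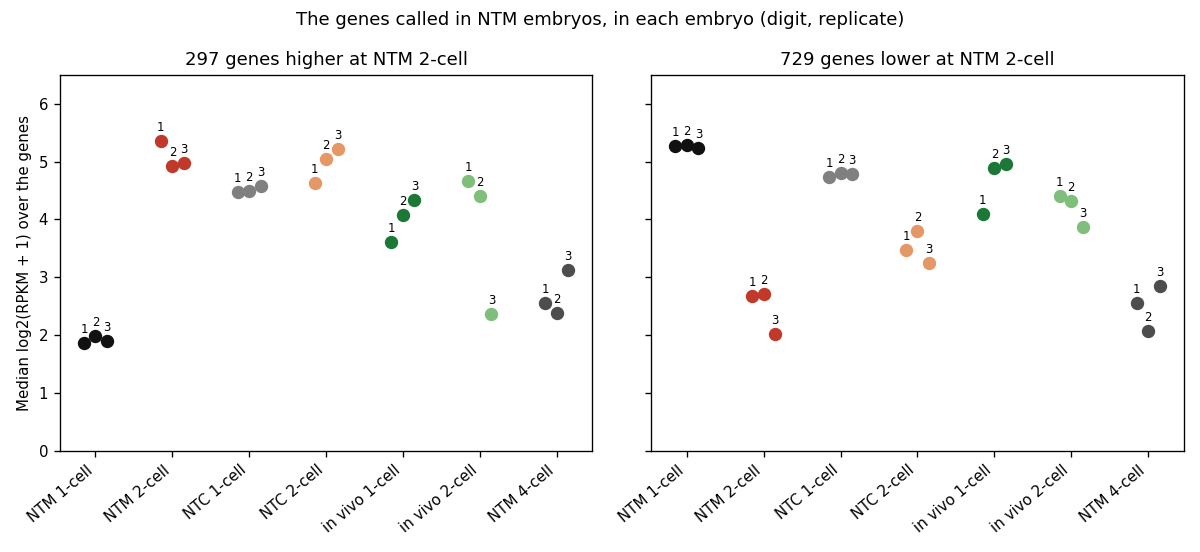
Median log2(RPKM + 1) over the 297 genes higher (left) and the 729 genes lower (right) at the NTM 2-cell stage, in each embryo of 7 groups, with the replicate number above each point. On the left the 3 NTM 1-cell embryos lie near 2 and the NTC 1-cell embryos near 4.5, and in vivo 2-cell replicate 3 lies with the NTM 1-cell embryos. On the right the NTM 2-cell embryos lie lowest of the 1-cell and 2-cell embryos.

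The genes that rose had transcripts richer in G and C than the genes that fell. GC content was that of the longest coding transcript of a gene or, without one, of its longest transcript. Its median was 53.4% for the genes that rose, 45% for those that fell and 48.8% for those not called, with values for 296, 725 and 9845 genes. Of the genes with a GC content of 60% and over, 8.24% rose and 0.717% fell, and of those under 40%, 1.17% rose and 14.6% fell. The median log2 difference went from -0.87 under 40% GC to 0.68 at 60% and over in NTM, and rose with each class of GC content. In NTC (9997 of these genes) it was -0.08 under 40% GC, -0.32 at 50% to 55% and 0.10 at 60% and over, and in in vivo embryos (9322 of these genes) it was -0.01 under 40% and -0.20 at 60% and over. Within libraries, the median log2 level of genes with at least 55% GC minus that of genes under 45% was -1.61, -1.70 and -1.70 in the NTM 1-cell embryos and -0.03, -0.57 and -0.37 in the NTM 2-cell embryos. In the NTC 1-cell embryos it was -0.99, -0.97 and -0.85, and in the in vivo 1-cell embryos -1.90, -1.27 and -1.04. At the 2-cell stage it was -1.07, -0.73 and -0.49 in NTC and -1.08, -1.68 and -1.83 in in vivo embryos, so it also varied between embryos of a group.

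When each library's curve of level against GC was removed, a correction chosen after the data had been seen, 785 genes were called (330 higher, 455 lower), of which 656 were among the 1026. Phf1 then differed by 6.52 and Hat1 by -4.56 on the log2 scale. The part of base composition in the rises and falls was not tested beyond this. In the donor MEFs 68.4% of the genes that rose had at least 1 RPKM, beside 71.3% of those that fell and 64.0% of all genes tested.

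**Figure D3:**
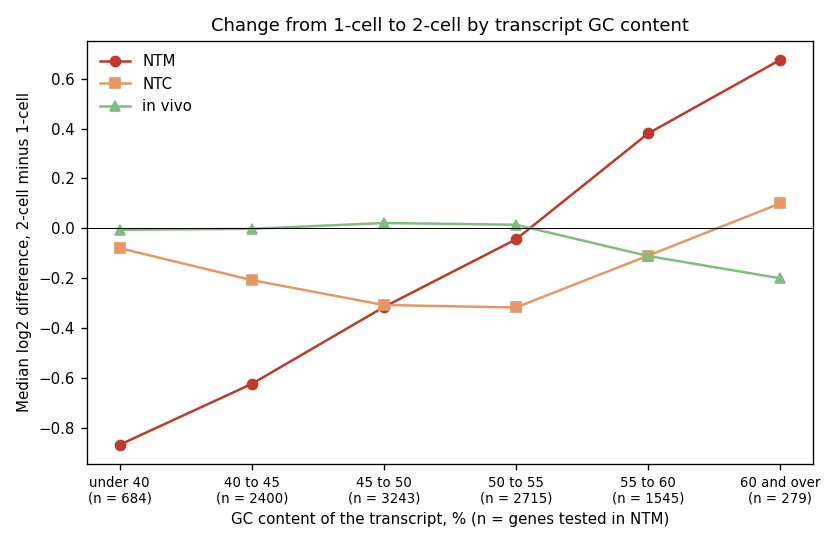
Median log2 difference between the 2-cell and the 1-cell stage by the GC content of the transcript, for the genes tested in NTM (red circles) and those of them with a value in NTC (orange squares) or in vivo embryos (green triangles). The NTM medians rise from -0.87 under 40% GC to 0.68 at 60% and over.

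A small set of genes rose from 0. Of the 21 risers with a mean under 1 RPKM over the other 1-cell embryos, 7 were listed at 0 in all 3 NTM 1-cell libraries. Zfp352 (GRCm38 chr4:90218820-90225702), a zinc finger gene known as a marker of the 2-cell embryo, was listed at 0 in the 3 NTM 1-cell embryos and reached 83.4, 5.62 and 34.4 RPKM in the 3 NTM 2-cell embryos. It was listed at 0 in the 3 in vivo 1-cell embryos too, and reached 205, 168 and 108 RPKM in NTC and 12, 6.93 and 395 RPKM in in vivo 2-cell embryos. Cd24a was listed at 0 in all 1-cell embryos of the 3 types and reached 80.7, 10.3 and 48.2 RPKM in NTM 2-cell embryos and 141, 85.5 and 46.6 RPKM in NTC 2-cell embryos and 0.0296, 1.98 and 3.9 RPKM in in vivo 2-cell embryos.

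**Figure D4:**
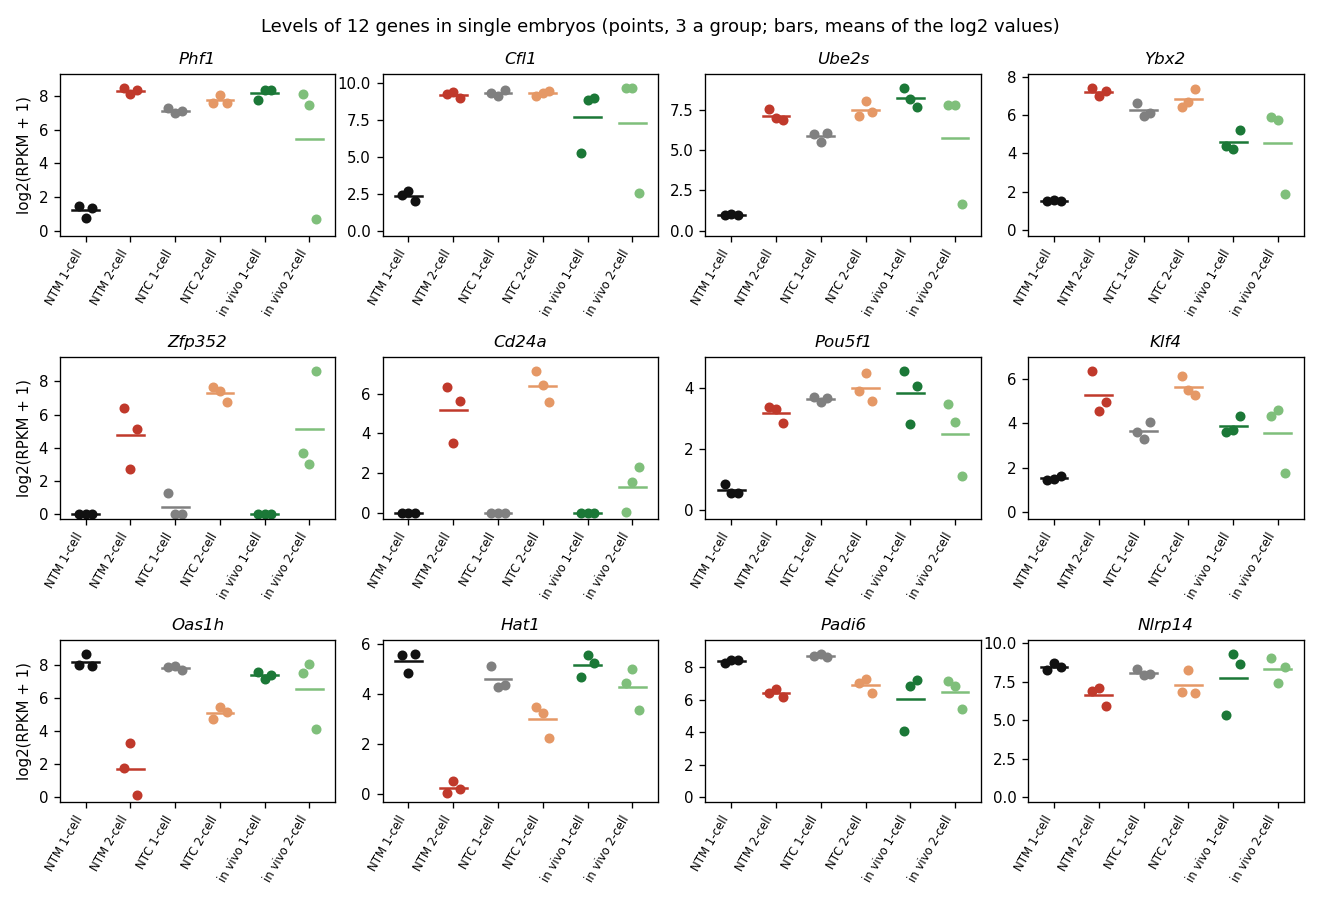
Levels of 12 genes as log2(RPKM + 1) in single embryos of 6 groups, with points for the 3 embryos and a bar for the mean of the log2 values. In the upper row the NTM 1-cell embryos and in vivo 2-cell replicate 3 lie lowest. Zfp352 and Cd24a rise from 0 in NTM embryos, and Hat1 in the 3 NTM 2-cell embryos lies below all other embryos shown.

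Of the genes linked to the pioneer factor Dux at the 2-cell stage, 21 of 44 reached the level for testing. Of these, 2 rose (Zfp352 and Dcdc2c) and 2 fell (Arg2 and Gm5039). This is 9.52% each, beside 2.72% and 6.68% of all genes tested. Under median-ratio scaling or GC correction 1 fell. The median log2 difference of the 21 was 1.26 beside -0.22 for all genes tested. Of the 44, 11 had a mean of at least 1 RPKM at the 1-cell stage and 17 at the 2-cell stage. Members could pass the filter through the 2-cell stage alone, so this median is a description only. Dux itself (listed as Duxf3) was at 0.0524, 0 and 0.135 RPKM at the NTM 1-cell stage and 0, 0 and 0 RPKM at the NTM 2-cell stage, and 11.4, 63.1 and 6.93 RPKM in the in vivo 2-cell embryos. Zscan4d, of a family with near-identical copies that marks 2-cell embryos, was at 11.8, 0.531 and 5.28 RPKM and then at 0 in all 3 NTM 2-cell embryos, whereas the in vivo 2-cell embryos had 11.1, 168 and 355 RPKM. The difference in NTM did not pass the test (adjusted p = 0.111). Gm5039 fell from 4.22, 14.2 and 6.41 RPKM to 0, 1.17 and 0 RPKM in NTM and was 8.89, 184 and 791 RPKM in in vivo 2-cell embryos. Of 5 genes in the table that the study names for the minor ZGA, 3 were tested and 0 were called by limma. The study drew its conclusion on translation initiation from a larger set of genes, defined by the in vivo change as well. Among 46 tested translation initiation genes, 3 rose (6.52%, beside 2.72% of all genes) and 4 fell (8.70%, beside 6.68%). With median-ratio scaling 4 of them rose and 3 fell. Eif1ax, a translation initiation factor, stood at 31.1, 59.5 and 27 RPKM and then 22.3, 21.1 and 12.1 RPKM, Eif1ad at 11, 14 and 12 RPKM and then 41.8, 8.39 and 1.47 RPKM, and Nanog at 0 in all 6 libraries.

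Among 36 tested regulators of the early embryo, 4 rose (11.1%, beside 2.72% of all genes) and 3 fell (8.33%, beside 6.68%). With median-ratio scaling 7 rose and with the GC correction 6. Klf4, a pluripotency factor, rose from 1.71, 1.82 and 2.07 RPKM to 80.1, 22.2 and 30 RPKM, and Klf17, a zygotic activator, from 140.2, 222 and 137 RPKM to 445, 552 and 404 RPKM. Pias4, a SUMO ligase, rose by 2.82 on the log2 scale. The homeobox genes Obox1, Obox2 and Obox7, of a family with close copies, fell. Obox1 went from 723, 654 and 728 RPKM to 70.2, 79.6 and 70.7 RPKM. Pou5f1 (Oct4) rose from 0.785, 0.451 and 0.458 RPKM to 9.26, 8.92 and 6.11 RPKM, but was 11.8, 10.4 and 11.6 RPKM in the NTC 1-cell embryos, where the stages did not differ by the test (log2 difference 0.37, adjusted p = 0.489).

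Of 80 tested oocyte genes 19 fell and 11 rose, beside 6.68% and 2.72% of all genes, and the median log2 difference was -0.66. With median-ratio scaling 14 fell (median -0.25) and with the GC correction 12 (median -0.39), while the genes lower over the whole table went from 729 to 420 and 455. Outside that list, Oas1h, an oligoadenylate synthetase gene, had 254, 401 and 246 RPKM at the 1-cell stage and 2.37, 8.66 and 0.0948 RPKM at the 2-cell stage, a log2 difference of -6.48 (SE 0.71, adjusted p = 0.00171). Gspt2, a translation termination factor, had 70.8, 96.7 and 97.9 RPKM and then 0, 0.192 and 0.577 RPKM. Oog4, of the list, an oocyte gene with close copies, had 675, 609 and 677 RPKM and then 59.5, 50.8 and 39.4 RPKM.

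Of 7 secreted oocyte factors 4 fell (Gdf9, Oosp1, Oosp2 and Oosp3), which is 57.1% beside 6.68% of all genes tested. Only 2 fell with median-ratio scaling and 1 with the GC correction. The zona pellucida gene Zp3 fell, and Ccnb1 and Pde3a fell among the genes of meiotic arrest and maturation. 5 members of the Tcl1b family, with close copies of each other, were among the 11 that rose. Btg4, which bridges the deadenylase complex to maternal mRNA, rose from 5877, 3875 and 5032 RPKM to 7898, 8897 and 15246 RPKM. The subcortical maternal complex, needed for cleavage beyond the 2-cell stage, had 5 of 9 members lower and 1 higher (median -1.54). This is 55.6% lower and 11.1% higher, beside 6.68% and 2.72% of all genes tested. Padi6 fell from 302, 348 and 341 RPKM to 83.9, 99.7 and 71.6 RPKM, and Nlrp2 from 55.8, 61.3 and 42.4 RPKM to 0.811, 1.71 and 10 RPKM. Zbed3 rose from 464, 539.8 and 459 RPKM to 4788, 2822 and 2901 RPKM and stood at 2086, 2123 and 2195 RPKM in NTC 1-cell embryos. Nlrp5, another member, had 145, 263 and 244 RPKM and then 146, 70.9 and 56.6 RPKM and was not called (adjusted p = 0.0867).

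Of 64 tested genes of mRNA decay 2 rose (Btg4 and the KH-type splicing regulator Khsrp) and 6 fell, which is 3.13% and 9.38% beside 2.72% and 6.68% of all genes, with a median of -0.35 as deposited and 0.04 after the GC correction, under which 3 fell. The 30 decapping and exonuclease genes had 3 falls and a median of -0.74, and the 14 deadenylase genes 1 fall and a median of 0.04. Edc4, a scaffold of decapping, had 57.8, 58.5 and 48.5 RPKM and then 7.68, 1.53 and 5.68 RPKM. Cnot7, a catalytic deadenylase, had 153, 117 and 149 RPKM and then 64.2, 50.6 and 83.9 RPKM, which did not pass the test (adjusted p = 0.0665).

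**Figure D5:**
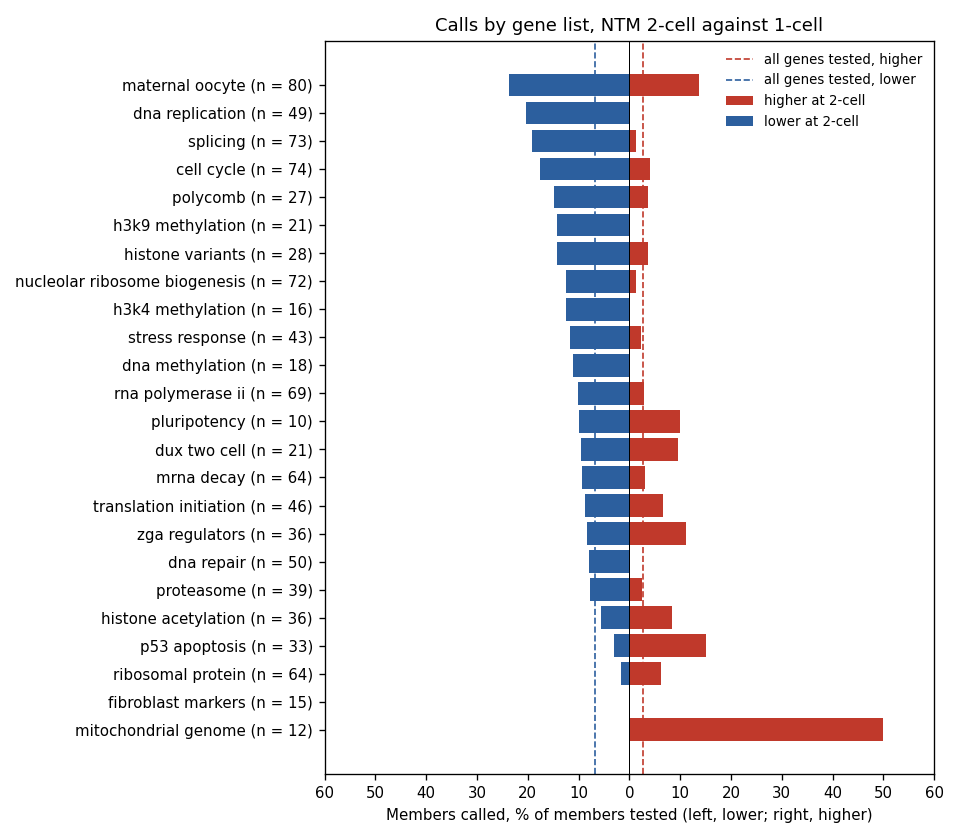
Members called lower (blue, left) and higher (red, right) at the NTM 2-cell stage, as a percentage of the members tested, for the gene lists with at least 10 members tested. Dashed lines give the same share for all genes tested, 6.68% lower and 2.72% higher. Of the whole lists drawn, the maternal oocyte list has the largest share lower, and the mitochondrial genome the largest share higher, 6 of 12.

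Of 49 tested DNA replication genes 10 fell (20.4%, beside 6.68% of all genes tested) and 0 rose (beside 2.72%). The median over the 49 was -1.04 as deposited and -0.73 and -0.76 under median-ratio scaling and GC correction. Orc1, which marks replication origins, had 79.3, 70.3 and 62.1 RPKM and then 10.3, 10.5 and 0.0232 RPKM. Mcm4, a subunit of the replicative helicase, had 28, 16 and 25.8 RPKM and then 1.89, 0.162 and 0.495 RPKM. Of 36 genes of the checkpoint, spindle and anaphase-promoting complex 10 fell (27.8%) and 1 rose (2.78%), with a median of -1.28. Under median-ratio scaling 6 fell (median -0.85) and under GC correction 5 (median -0.77). Of 38 cyclins, kinases and related genes 3 fell (7.89%) and 2 rose (5.26%), with a median of 0.02. Under median-ratio scaling 1 of these fell and 4 rose. Kif23, a kinesin of cytokinesis, had 149, 140.2 and 134 RPKM and then 21.2, 11.7 and 0.778 RPKM.

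Of 73 splicing genes 14 fell (19.2%, beside 6.68% of all genes) and 1 rose (median -0.70), with 8 falls under median-ratio scaling and 9 under GC correction. Of 72 genes of ribosome biogenesis 9 fell (12.5%) and 1 rose (median -0.64), with 5 falls under each of these settings. Of 69 genes of RNA polymerase II transcription 7 fell (10.1%) and 2 rose (2.90%), with a median of -0.43, shares near those of all genes, and 5 rose under each of these settings. Plrg1, a spliceosome component, had 38.8, 48.6 and 54.6 RPKM and then 4.77, 2.86 and 3.07 RPKM. Taf1d, a subunit of the RNA polymerase I initiation factor, rose from 0, 3.33 and 12.7 RPKM to 339, 87.2 and 20.5 RPKM, with wide spread between embryos (adjusted p = 0.0428). Of 64 ribosomal protein genes 4 rose (6.25%, beside 2.72% of all genes tested) and 1 fell (1.56%, beside 6.68%). Rplp0 rose from 77, 39 and 61.1 RPKM to 213, 134 and 200.4 RPKM.

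Of 21 genes of H3K9 methylation, a barrier to reprogramming of somatic nuclei, 3 fell, the demethylase gene Kdm7a and the reader genes Mphosph8 and Uhrf1, and 0 rose (median -1.0). This is 14.3% beside 6.68% of all genes. With median-ratio scaling 1 fell, with the mitochondrial reads left out 2 and with the GC correction 3. Uhrf1, which guides DNA methylation maintenance, had 96.4, 108 and 109 RPKM and then 44.5, 43 and 37 RPKM. Dnmt1, the maintenance DNA methyltransferase, had 58.3, 133 and 85.6 RPKM and then 9.69, 11 and 5.28 RPKM. Suv39h2, an H3K9 methyltransferase, had 38.1, 86.3 and 80.2 RPKM and then 27.6, 51.9 and 22.1 RPKM, and did not pass the test (adjusted p = 0.218). Hat1, which acetylates newly made histone H4, had 45.4, 27.7 and 47 RPKM and then 0.0354, 0.428 and 0.168 RPKM, a log2 difference of -5.06 (SE 0.50, adjusted p = 0.0011).

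Among 33 tested genes of the p53 pathway and apoptosis 5 rose (Bcl2l1, Bik, Ccng1, Gadd45g and Mcl1) and 1 fell (Birc3), which is 15.2% and 3.03% beside 2.72% and 6.68% of all genes, with a median of 0.35, and among the 12 tested mitochondrially encoded genes 6 rose. Mcl1, an anti-apoptotic protein, had 0.0413, 0.633 and 0.0354 RPKM and then 7.84, 7.91 and 2.74 RPKM. The cytochrome oxidase gene mt-Co1 had 8748, 5854 and 5869.6 RPKM and then 24367, 22692 and 54441 RPKM. The share of the reads on genes that came from the mitochondrial genome was 4.19%, 2.92% and 3.22% in the NTM 1-cell embryos and 9.86%, 10.4% and 22.9% in the 2-cell embryos. Since the values are relative, a larger mitochondrial share lowers the nuclear values of that library. The part of this share in the falls was not tested beyond leaving out the mitochondrial reads, which left 567 genes lower and 330 higher. Fewer transcripts and a smaller share of the library cannot be told apart in RPKM.

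The NTM transition was then set beside those of NTC and in vivo embryos, which share no library with it. By the same test, the NTC transition had 1606 of 11915 genes called. The in vivo transition had 0 of 10854 (615 at an unadjusted p under 0.05 by limma). In vivo 1-cell replicate 1 had 9491 genes above 0, beside 12187 and 12593 in replicates 2 and 3. Of the genes that fell in NTM, 89.6% also had a negative log2 difference in NTC and 73.6% in in vivo embryos, beside 59.7% and 50.5% of all genes tested that had a value there. Of the genes that rose, 69.6% had a positive difference in NTC and 46.9% in in vivo embryos, beside 40.3% and 49.5% of all genes. The median log2 difference of the falling genes was -2.54 in NTM, -1.30 in NTC and -0.44 in in vivo embryos, and that of the rising genes 2.65, 0.49 and -0.10. The Spearman correlation of the log2 differences across genes, which are not independent, was 0.42 between NTM and NTC (10041 genes) and 0.20 between NTM and in vivo embryos (9364 genes).

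A test of the difference between transitions (limma, interaction term) called 233 of 11727 genes between NTM and NTC (1.99%), of which 145 were more positive in NTM (1.24%) and 88 more negative (0.75%). Cfl1 differed by 6.85 (SE 0.34, adjusted p = 2.7e-07) on the log2 scale, Selenow by 6.58 (SE 0.56, adjusted p = 8.21e-05) and Ubl7, a ubiquitin-like protein, by 6.01 (SE 0.82, adjusted p = 0.0025). Cfl1 was 657, 569 and 740.1 RPKM at the NTC 1-cell stage and 573, 655 and 719 RPKM at the NTC 2-cell stage. Zfp51, a zinc finger gene, was 37.2, 42.1 and 51.6 RPKM and then 23.2, 32.8 and 0.311 RPKM in NTM and 17.4, 9.32 and 6.17 RPKM and then 112, 216 and 122 RPKM in NTC, a difference of -5.82 (SE 1.28, adjusted p = 0.035). Of the 233 genes, 222 had been tested in the NTM transition itself. There, 114 rose, 60 fell and 48 were not called, where 9.4% of all genes tested were called. The interaction term contains the NTM change itself, from the same libraries, so this overlap is not independent support. Leaving out replicate 1, 2 or 3 of every group left 36, 20 or 22 calls.

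Against in vivo embryos the test called 23 of 11278 genes (0.204%), 8 more positive in NTM (0.0709%) and 15 more negative (0.133%). Phf1 differed by 9.90 (SE 1.84, adjusted p = 0.0472) and Ube2s by 8.60 (SE 1.62, adjusted p = 0.0472), and Zfp960, a zinc finger gene, by -6.37 (SE 1.19, adjusted p = 0.0472). Zfp960 was 25.2, 17.7 and 21.9 RPKM and then 0.517, 0.0272 and 0.0606 RPKM in NTM and 0.179, 12.2 and 8.29 RPKM and then 17.8, 57.7 and 9.98 RPKM in in vivo embryos. Gm5039, which fell in NTM and was listed at 0 in the 3 in vivo 1-cell embryos, differed by -9.51 (SE 1.60, adjusted p = 0.0472). Without in vivo 2-cell replicate 3, the library in which Phf1 and Ube2s were low, 96 genes were called (29 more positive, 67 more negative), including all 23. With the GC correction 0 were called by limma (1298 at an unadjusted p under 0.05).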

How the data were processed

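Single embryos were lysed, and polyadenylated RNA was reverse transcribed, tailed, amplified by PCR and sequenced, with no molecular identifiers. The authors aligned the reads to the mouse genome, counted reads on genes and deposited one table of RPKM for 60 libraries. The submitters' processing notes name Bowtie 0.12.2 and mm8, whereas the study's methods name TopHat, Bowtie2 and HTSeq with a UCSC reference, so the build of the deposited RPKM is not settled. Whether strand was used in counting is not given in the sources used here, so overlapping and antisense genes, and near-identical copies, are uncertain. Spike-in RNA was added but is not used here.

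RPKM values were taken as log2(RPKM + 1). A gene was tested if its RPKM averaged 0.5 or more over the libraries compared, with limma 3.58.1 in R 4.3.3 (empirical Bayes with trend, Benjamini-Hochberg adjustment). A gene low at either stage could pass this filter through the other stage alone. A gene was called at an adjusted p under 0.05 and a log2 difference of at least 1 in size. Only the groups compared entered a fit. A difference between transitions was tested as an interaction term in a fit of the 4 groups. All log2 differences are on the log2(RPKM + 1) scale, which understates the change of low genes. Each SE is that of the limma fit. The steps were tested on simulated data.

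Reads on genes were estimated from the steps between low RPKM values, with exon lengths from GENCODE M21 (GRCm38), and only 75.4% to 81.2% of the low values came out as whole reads (within 0.01 of a read), so no count test was run. Gene positions, transcript GC content and length come from GENCODE M21. The GC correction subtracted from each library its lowess curve (span 0.3) of log2 level on GC content. The replicate numbers did not pair the samples. Genes named are the 12 largest rises and the 12 largest falls without overlap between embryos, up to 5 called members of each list, up to 6 genes of each interaction, and key members of a few lists whatever their call. The comparison, gene lists and named genes were chosen with earlier results of these data known. P-values measure the spread between single embryos that had been picked by appearance. The values of 1 called gene are not reported here.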

Additional observations from a re-analysis of the deposited data

Results flagged for a closer look

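The genes below changed differently between the stages in NTM embryos and in another embryo type, by the interaction term of the limma fit. Between NTM and NTC, 233 genes differed. Among those with the largest differences in log2 change, Cfl1 (6.85), Selenow (6.58), Phf1 (6.52), Hmga1b (6.25) and Ubl7 (6.01) were more positive in NTM, and Zfp51 (-5.82) was more negative. Hmga1b is a near-identical copy of Hmga1.

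Between NTM and in vivo embryos, 23 genes differed. Phf1 (9.90), Ube2s (8.60), Mark2 (6.30), a kinase of cell polarity, and Uchl1 (6.05), a ubiquitin hydrolase of oocytes, were more positive in NTM. Gm5039 (-9.51) and Zfp960 (-6.37) were more negative in NTM. The adjusted p of these 6 genes was 0.0472. In NTM alone Phf1 rose by 7.15 and Ube2s by 6.13. The mean log2 level of both was therefore lower at the 2-cell than at the 1-cell stage in in vivo embryos. In vivo 2-cell replicate 3 was low in both genes. Without that library 96 genes were called, including all 23, and with the GC correction 0 were called by limma.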

How the results depend on the processing

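Of 147 genes named and tested, Eif1ad, which was not called, changed direction (-0.41 on the log2 scale, -1.46 to 0.59 with 1 library left out, the last without NTM 2-cell replicate 3). Across settings 1365 values kept their direction and call, 395 kept their direction and missed the threshold, most of them without an NTM 1-cell embryo, and 3 that had missed it passed. The NTM transition gave 461 calls (155 higher, 306 lower) with no filter on low values and 2351 (826 higher, 1525 lower) in one fit over all 20 groups, of which 908 were among the 1026. Fewer genes were lower with median-ratio scaling (420) and with the GC correction (455), which was chosen after seeing the data. Leaving out 1 library gave 185 to 1215 calls, 80 to 461 higher and 105 to 894 lower: NTM 1-cell replicates 1, 2 and 3 each took the count down (211, 289 and 185), and without NTM 2-cell replicate 3 461 were higher. Leaving out an NTM 2-cell embryo gave 906 to 1215 calls. In either case 2 embryos were left in a stage and the fit had fewer residual degrees of freedom. The cause of the lower counts without a 1-cell embryo was not tested.

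The NTM and NTC transitions differed in 460 genes in one fit over all 20 groups and in 20 to 36 with 1 replicate number left out of every group. The NTM and in vivo transitions differed in 0 genes with no filter (1645 at an unadjusted p under 0.05 by limma), 62 with a filter of mean RPKM at least 2, 41 with median-ratio scaling, 954 in one fit over all 20 groups, 0 to 4 with 1 replicate number left out, 0 with the GC correction (1298 at an unadjusted p under 0.05 by limma) and 96 without in vivo 2-cell replicate 3 (the last 2 chosen after seeing the data). The cause of these changes was not tested, and the in vivo comparison depends on the setting.

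Same-numbered NTM embryos did not deviate together (correlations -0.012, 0.0503 and -0.00617), so the numbers do not pair the samples. With the replicate number as a block 813 genes were called in the NTM transition, 150 in the difference from NTC and 0 in the difference from in vivo embryos (1302 at an unadjusted p under 0.05 by limma).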
